A study of Mus musculus with 6 samples.

Results

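Immunoglobulin variable (V) segments were followed in small-intestinal adenomas of mice with or without the miR-34 family. Members were chosen by name and by summed count, as the rows of the count tables whose Ensembl identifier maps to a symbol starting with Ighv (heavy chain), Igkv (kappa light chain) or Iglv (lambda light chain), and whose raw counts summed to at least 100 over the 6 libraries. This gave 168 segments of 348 V rows and of 46078 genes in all. Of the 88 Ighv, 77 Igkv and 3 Iglv members, 156 are annotated as functional V genes and 12 as pseudogenes. The members held 235643 counts, and the other 180 V rows held 2322 counts, or 0.976% of all V counts. The last segments inside the count limit were Ighv1-42 with 110 counts, Ighv1-40 with 108 and Igkv3-11 with 102, and the first outside it were Igkv12-89 with 98, Ighv1-37 with 94 and Ighv1-71 with 93. The limit uses the sum of counts over both genotypes, so the summed count of a member is a description only.

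All 6 mice were 18 weeks old, of the mixed strain C57BL6/SV129, and carried the ApcMin/+ allele, a truncating mutation of the tumor suppressor Apc that gives intestinal adenomas. The knockout group (KO-1, KO-2 and KO-3) had the genotype miR-34a/b/c-/-;ApcMin/+ and the wild-type group (WT-1, WT-2 and WT-3) had miR-34a/b/c+/+;ApcMin/+. Each library was made from RNA of 3 pooled tumors of 1 mouse, so the mouse is the replicate and differences among the tumors of a mouse cannot be seen. Whole tumor RNA was sequenced, and no immune cells were sorted. Library totals ran from 26375035 to 38354355 counts, and no pair of libraries agreed within sampling noise. Levels are given as CPM, counts scaled to a common library size, with TMM factors that align the bulk of genes between libraries.

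An antibody chain is made when a B cell joins 1 V segment to a joining (J) segment, with a diversity segment between them in the heavy chain, and transcribes the join with a constant gene. All descendants of that B cell keep the joined V segment, so expanded plasma cell clones raise the use of single segments. In the intestine most plasma cells secrete IgA, whose heavy chain constant gene is Igha and whose dimers are held by the product of Jchain. Kappa chains outnumber lambda chains in mice, whose lambda locus has few V segments.

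The segments that led their locus in any library are shown by the last 60 bases of the V coding exon, where the germline segment ends and the join begins, because the results below turn on which of them a tumor used. Sequences are those of GENCODE M21 transcripts on GRCm38, written 5′ to 3′ along the gene. Capitals mark the only match in each stretch to TANTNNTG, which covers the codons that end the last framework of a V segment and was searched on the coding strand. The heavy chain leaders lie on chromosome 12, minus strand. They are Ighv5-17 at chr12:113859149-113859208, Ighv9-3 at chr12:114140692-114140751, Ighv1-9 at chr12:114583569-114583628, Ighv3-6 at chr12:114288152-114288211 and Ighv6-6 at chr12:114434788-114434847.
Ighv5-17: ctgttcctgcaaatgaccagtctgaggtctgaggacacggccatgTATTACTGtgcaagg
Ighv9-3: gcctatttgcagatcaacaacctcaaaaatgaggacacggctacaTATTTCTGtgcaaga
Ighv1-9: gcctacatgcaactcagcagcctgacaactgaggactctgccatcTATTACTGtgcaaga
Ighv3-6: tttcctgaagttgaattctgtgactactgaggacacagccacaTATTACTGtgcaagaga
Ighv6-6: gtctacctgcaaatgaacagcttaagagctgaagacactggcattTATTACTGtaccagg

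The kappa leaders lie on chromosome 6. They are Igkv11-125 on the plus strand at chr6:67913993-67914052, and on the minus strand Igkv6-14 at chr6:70434952-70435011, Igkv10-96 at chr6:68631963-68632022, Igkv8-27 at chr6:70171809-70171868 and Igkv8-28 at chr6:70143593-70143652. The lambda leader Iglv1 lies on chromosome 16, minus strand, at chr16:19085017-19085076.
Igkv11-125: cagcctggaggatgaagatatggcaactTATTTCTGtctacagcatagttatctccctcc
Igkv6-14: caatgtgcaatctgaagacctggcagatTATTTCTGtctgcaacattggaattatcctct
Igkv10-96: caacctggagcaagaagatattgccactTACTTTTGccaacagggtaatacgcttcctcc
Igkv8-27: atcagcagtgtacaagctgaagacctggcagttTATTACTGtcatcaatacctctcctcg
Igkv8-28: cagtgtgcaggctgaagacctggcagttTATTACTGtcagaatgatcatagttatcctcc
Iglv1: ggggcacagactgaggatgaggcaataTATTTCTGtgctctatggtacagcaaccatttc

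In the heavy chain leaders the bases after the capitals are few, whereas the light chain leaders carry a longer stretch that encodes most of the third variable loop. A match to the motif lay in the last 40 bases of the coding exon in 153 of 156 members with such an exon (98.1%), in 54 of 62 other V rows (87.1%), and in 207 of 218 V rows in all. The match is a description of the letters. Of the 168 members, 94 had another V row at 95% identity or more over at least 80% of their length, none reached 99%, and the median identity to the nearest V row was 95.4%. The sources used here do not give the counting of reads that fit several copies, so the split of counts between near copies is uncertain.

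V segment transcripts were lower in the knockout tumors than in the wild-type tumors, and every knockout library lay below every wild-type library. The summed level of the 168 members was 269 CPM in KO-1, 992 in KO-2 and 1018 in KO-3, against 1201 in WT-1, 2059 in WT-2 and 1433 in WT-3. The groups did not overlap, but the gap between the highest knockout and the lowest wild-type library was narrow and KO-1 stood far below the rest. The means were 760 ± 425 (SD, n = 3) in the knockout and 1564 ± 444 (SD, n = 3) in the wild-type group. The difference of mean log2 CPM was -1.24, a level 2.35-fold lower in the knockout, with p = 0.1 in a two-sided exact permutation test, which is the smallest p that 3 against 3 mice can give. The adjusted p over the 15 measures tested was 0.375 (Benjamini-Hochberg, exact permutation). Without KO-1 the difference was -0.61. In bulk tumor RNA, fewer antibody-secreting cells and less immunoglobulin RNA per cell cannot be told apart.

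**Figure D1:**
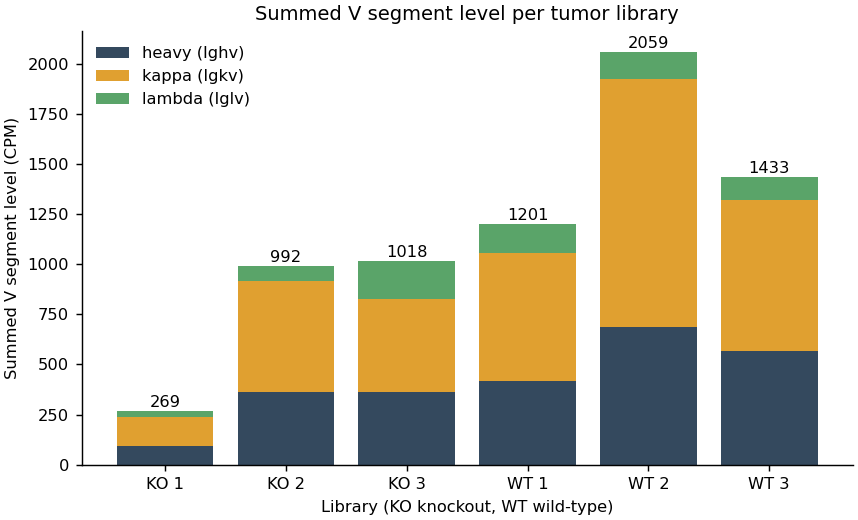
Stacked bars give the summed level of V segments (CPM, vertical axis) in each of the 6 libraries, split into heavy, kappa and lambda segments, with the total printed above each bar. The knockout libraries reach 269 to 1018 CPM and the wild-type libraries 1201 to 2059 CPM.

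Heavy and kappa segments both showed the separation, and lambda segments did not. Summed Ighv levels were 94.9, 362 and 364 CPM in KO-1 to KO-3 and 415, 687 and 566 CPM in WT-1 to WT-3, a difference of -1.23 on the log2 scale (exact permutation p = 0.1, n = 3 per group). Summed Igkv levels were 143, 557 and 463 CPM in the knockout and 639, 1237 and 755 CPM in the wild-type libraries, a difference of -1.34 (exact permutation p = 0.1, n = 3 per group). Neither locus overlapped between the genotypes. Summed Iglv levels were 31.3, 73.3 and 191 CPM in the knockout and 147, 134 and 112 CPM in the wild-type libraries. The lambda groups overlapped, since KO-3 held the highest level of all 6 libraries, and the log2 difference was -0.78 (exact permutation p = 0.4, n = 3 per group). Without KO-1 the differences were -0.59 for Ighv, -0.74 for Igkv and -0.14 for Iglv.

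The division of V counts among the 3 loci was similar in both groups for the heavy chain and varied between mice for the light chains. Ighv took 35.3%, 36.5% and 35.8% of the V counts in KO-1 to KO-3 and 34.6%, 33.4% and 39.5% in WT-1 to WT-3 (difference of means 0.02 percentage points, exact permutation p = 1.0, n = 3 per group). The 95% exact binomial interval was widest in KO-1, at 34.2% to 36.4%, and was 39.1% to 39.9% in WT-3, above the interval of every other library. These intervals cover counting error only. The ratio of kappa to lambda V counts was 4.56, 7.60 and 2.43 in the knockout and 4.35, 9.21 and 6.75 in the wild-type libraries. Lambda segments held 18.7% of the V counts in KO-3 and 6.52% in WT-2, the extremes, and the groups overlapped (exact permutation p = 0.5 for the lambda share, n = 3 per group).

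Single segments were tested with edgeR's quasi-likelihood test over all 17254 genes that passed the filter on low counts. Of the 168 members, 160 passed the filter, and none was called at an adjusted p below 0.05, against 0.0927% of all genes tested. The lowest adjusted p of a member was 0.298 (edgeR, Benjamini-Hochberg). At an unadjusted p below 0.05, edgeR found 34 tested members lower in the knockout (21.2%), where 2.58% of all genes tested were, and 2 higher (1.25%), where 3.27% of all genes were. DESeq2, run as an alternative, called 12 members at an adjusted p below 0.05 (7.50% of those tested), beside 0.638% of all genes, and 11 of the 12 were lower in the knockout, beside 0.371% of all genes. The 8 members that did not pass the filter were Igkv12-38, Igkv1-133, Ighv1-52, Ighv6-4, Ighv6-7, Igkv7-33, Igkv4-69 and Ighv1-40.

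The direction was shared by most segments that could be tested. The log2 fold change of knockout over wild-type was below 0 in 134 tested members and above 0 in 26, with a median of -1.14, beside a median of 0.01 over all genes tested. Without WT-2 the median was -0.69, with 117 below and 45 above 0, and without KO-1 it was -0.79, with 120 below and 44 above. In the full data it was below 0 in 70 of 84 tested Ighv segments (median -1.15), in 61 of 73 Igkv segments (median -1.16) and in the 3 Iglv segments (median -0.33). Every knockout library was below every wild-type library in 25 tested members (15.6%), beside 5.34% of all genes tested. The opposite order was seen in 2 members, Igkv4-90 and Igkv11-125 (1.25%), beside 5.87% of all genes. Pseudogene members followed the same direction in 10 of 11 tested, although they held only 2.76% of the members' counts.

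**Figure D2:**
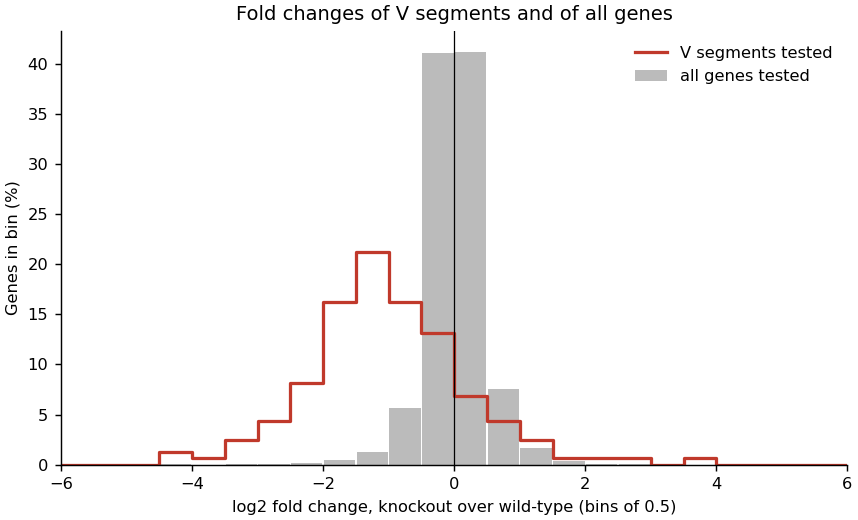
The horizontal axis gives the log2 fold change of knockout over wild-type in bins of 0.5 and the vertical axis the percentage of genes in each bin. Grey bars are the 17254 genes tested and the red line the 160 V segments tested, whose median of -1.14 lies left of the median of 0.01 over all genes.

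The heavy chain segment with the smallest p was Ighv1-76, which had 5, 5 and 10 counts in KO-1 to KO-3 and 113, 163 and 36 counts in WT-1 to WT-3. Its level was 0.194 ± 0.0404 CPM in the knockout and 3.21 ± 2.07 CPM in the wild-type group (SD, n = 3 each), without overlap. Its log2 fold change was -4.01 ± 0.67 (SE), with an adjusted p of 0.298 (edgeR). Other heavy chain segments were among the smallest p-values and kept the genotypes apart. Ighv1-33 is annotated as a pseudogene, and its nearest V row, Ighv1-19, matched it at 96.0% identity. Ighv1-33 had 4, 11 and 8 counts in the knockout and 63, 33 and 35 in the wild-type libraries, a log2 fold change of -2.50 ± 0.49 (SE, edgeR adjusted p = 0.463). Ighv1-84 had 8, 9 and 12 counts against 37, 156 and 53, a log2 fold change of -3.10 ± 0.64 (SE, edgeR adjusted p = 0.553). These 3 Ighv1 segments are minor ones, each below 1% of heavy chain V counts in every library.

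Ighv5-4, a more common segment, had the same direction. Its level was 2.25, 5.81 and 4.56 CPM in the knockout and 15.7, 11.7 and 13.1 CPM in the wild-type libraries, a log2 fold change of -1.68 ± 0.35 (SE, edgeR adjusted p = 0.581). Ighv5-17, the one heavy chain segment among the 10 most used of all 6 libraries, had 8.84, 11.9 and 14.7 CPM in the knockout and 38.7, 19.6 and 36.4 CPM in the wild-type libraries. Its groups did not overlap, and its log2 fold change was -1.42 ± 0.31 (SE, edgeR adjusted p = 0.606). All 8 tested segments of the Ighv5 family had a log2 fold change below 0. Among kappa segments the smallest p below 0 was that of Igkv6-20, with 17, 36 and 28 counts in the knockout and 126, 78 and 101 in the wild-type libraries, a log2 fold change of -1.90 ± 0.38 (SE, edgeR adjusted p = 0.463).

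The 2 kappa segments that were higher in every knockout library went against most of their locus. Igkv4-90 had 213, 22 and 142 counts in KO-1 to KO-3 and 9, 4 and 13 counts in WT-1 to WT-3. Its log2 fold change was 3.89 ± 0.89 (SE, edgeR adjusted p = 0.701), and KO-1 alone held 60.5% of its summed CPM. Igkv11-125 had 9.93, 6.14 and 13.5 CPM in the knockout and 0.279, 1.23 and 4.75 CPM in the wild-type libraries, a log2 fold change of 2.23 ± 0.88 (SE, edgeR adjusted p = 0.793). KO-2 and WT-3 were close for Igkv11-125, so the separation rests on a small gap. The next segments above 0 overlapped between genotypes. Igkv9-124 had a log2 fold change of 1.86 ± 0.98 (SE) with 12.5 CPM in KO-2 and 0.634 to 2.30 CPM in the other 5 libraries. Igkv4-86 had 1.27 ± 0.74 (SE) and Ighv1-85 had 1.34 ± 0.90 (SE), the latter with 5.42 CPM in KO-3 and at most 1.34 CPM elsewhere.

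Usage within a locus, given as shares of that locus and so free of the total level, was uneven in every library. The most used heavy chain segment held 9.32%, 5.66% and 6.23% of the Ighv counts in KO-1 to KO-3 and 14.5%, 9.90% and 12.7% in WT-1 to WT-3. The leader's share was smaller in each knockout library than in any wild-type library, with KO-1 and WT-2 close to each other. The means were 7.07% ± 1.97 and 12.3% ± 2.30 (SD, n = 3 each), a difference of -5.28 percentage points, with p = 0.1 in the two-sided exact permutation test, the smallest possible, and 0.375 after Benjamini-Hochberg adjustment over 15 measures. The separation was lost when segments of at least 95% identity were merged, which put KO-3 at 11.6%, above WT-2 (difference -3.50), and when pseudogenes were left out, which put KO-1 at 10.8% and WT-2 at 10.3%. The most used kappa segment held 6.96%, 10.2% and 12.5% in the knockout and 21.3%, 10.8% and 9.72% in the wild-type libraries. Here the groups overlapped (difference -4.09 percentage points, exact permutation p = 0.5, n = 3 per group), and without WT-1 the difference was -0.41. With segments of at least 95% identity merged, the kappa leader held 14.7% in KO-3, 11.3% in WT-2 and 14.1% in WT-3. KO-1, KO-2 and WT-1 were unchanged, and the groups still overlapped.

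By broader measures of dominance the genotypes overlapped, with WT-1 and WT-3 the most concentrated for the heavy chain and WT-1 for kappa. The number of heavy chain segments needed for 50% of the Ighv counts was 13 in each knockout library, 8 in WT-1, 14 in WT-2 and 9 in WT-3. For kappa it was 11, 11 and 10 in the knockout libraries, 5 in WT-1, 10 in WT-2 and 11 in WT-3. The effective number of segments, taken as the inverse Simpson index (the count of equally used segments that would give the same concentration), was 31.9, 36.7 and 35.4 for Ighv in the knockout and 19.1, 33.6 and 23.4 in the wild-type libraries (exact permutation p = 0.2, n = 3 per group). For Igkv it was 29.4, 28.9 and 24.2 against 12.2, 26.4 and 28.5 (exact permutation p = 0.5, n = 3 per group). KO-1 had the fewest V counts, 7637, but thinning all libraries to its 2694 Ighv counts left the heavy chain values at 31.9, 36.3, 35.0, 19.0, 33.2 and 23.3, and the order of the libraries was the same as before thinning. Without WT-1 the kappa difference of inverse Simpson numbers went from 5.14 to 0.04 and the heavy chain difference from 9.27 to 6.14.

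**Figure D3:**
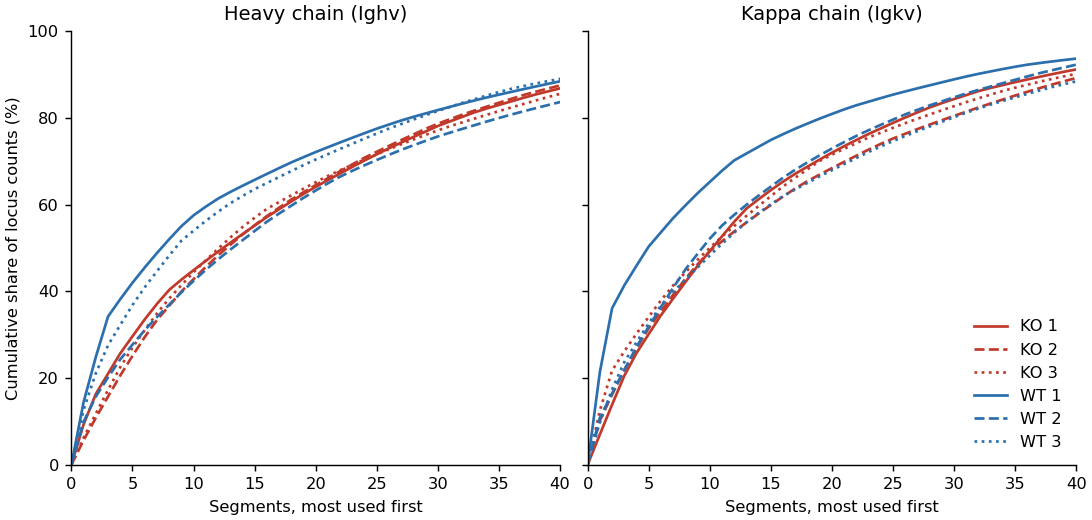
Segments are ranked from the most used (horizontal axis) and the vertical axis gives the cumulative share of locus counts in percent, for heavy (left) and kappa (right) segments, with red lines for knockout and blue lines for wild-type libraries. WT-1 climbs fastest in both loci and passes 50% after 8 heavy and 5 kappa segments.

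Different mice favoured different segments. The heavy chain leader was Ighv5-17 in KO-1, Ighv9-3 in KO-2, Ighv1-9 in KO-3 and WT-1, Ighv3-6 in WT-2 and Ighv6-6 in WT-3. The kappa leader was Igkv11-125 in KO-1, Igkv6-14 in KO-2, Igkv10-96 in KO-3 and WT-2, Igkv8-27 in WT-1 and Igkv8-28 in WT-3. Each of these, and Iglv1 for lambda, also ranked 1 in that library when counts were divided by exon length. Among the 10 most used heavy chain segments, pairs of libraries shared 2 to 6, and the 6 lists held 27 distinct segments, 12 of them in 1 library only. Kappa lists shared 2 to 5 of 10 and held 30 distinct segments, 13 of them in 1 library only, and none stood in all 6.

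**Figure D4:**
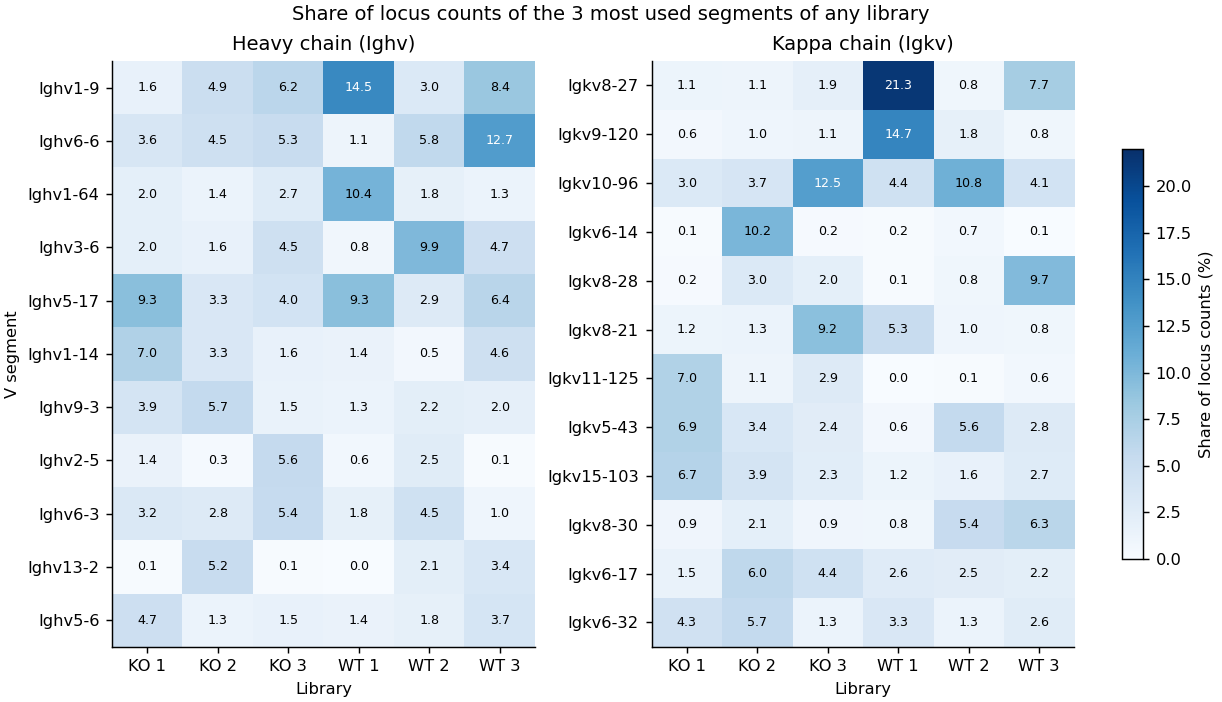
Each cell gives the share of locus counts in percent, printed and shaded, of 1 segment (rows, the 3 most used of any library) in 1 library (columns), for heavy (left) and kappa (right) segments. The darkest cells are Igkv8-27 at 21.3%, Igkv9-120 at 14.7% and Ighv1-9 at 14.5%, all in WT-1.

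Igkv8-27 was the most dominant segment outside the lambda locus. It held 1.13%, 1.08% and 1.94% of the kappa V counts in KO-1 to KO-3, 21.3% in WT-1 (95% exact binomial interval 20.8% to 21.9%, counting error only), 0.785% in WT-2 and 7.66% in WT-3. Only WT-1 and WT-3 were high, and WT-2 was below all knockout libraries in share. In CPM the genotypes did not overlap, with 1.62 in KO-1 to 8.99 in KO-3, and 136, 9.71 and 57.9 in WT-1 to WT-3. Its log2 fold change was -3.60 ± 1.00 (SE, edgeR adjusted p = 0.792). The second segment of WT-1, Igkv9-120, held 14.7% there and 0.567% to 1.84% in the other 5 libraries. The first 2 kappa segments of WT-1 came from different families, and in the heavy chain of the same mouse Ighv1-9 held 14.5% and Ighv1-64 held 10.4%. Ighv1-64 held 1.29% to 2.75% in the other 5 libraries.

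Reads of similar segments can be confused, so Igkv8-27 is shown beside its relatives Igkv8-28 and Igkv8-30. Igkv8-28 led WT-3, and Igkv8-30 was among the 3 most counted in WT-2 and WT-3. The last 300 bases of each coding exon are given, on the minus strand of chromosome 6 at chr6:70171809-70172108, chr6:70143593-70143892 and chr6:70117061-70117360. Capitals in the lower pair mark bases that differ from Igkv8-27 in the alignment of the exons.
Igkv8-27: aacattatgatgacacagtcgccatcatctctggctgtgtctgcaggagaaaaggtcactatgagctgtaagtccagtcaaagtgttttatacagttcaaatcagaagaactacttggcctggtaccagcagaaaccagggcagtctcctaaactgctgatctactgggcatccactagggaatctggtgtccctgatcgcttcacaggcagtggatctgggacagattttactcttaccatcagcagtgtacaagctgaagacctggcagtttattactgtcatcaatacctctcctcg
Igkv8-28: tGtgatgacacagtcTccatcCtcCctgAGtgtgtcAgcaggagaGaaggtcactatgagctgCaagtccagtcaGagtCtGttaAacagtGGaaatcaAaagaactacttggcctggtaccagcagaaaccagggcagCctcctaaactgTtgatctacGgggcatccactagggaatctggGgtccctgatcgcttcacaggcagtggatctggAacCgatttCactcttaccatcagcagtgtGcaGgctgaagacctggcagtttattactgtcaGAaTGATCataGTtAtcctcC
Igkv8-30: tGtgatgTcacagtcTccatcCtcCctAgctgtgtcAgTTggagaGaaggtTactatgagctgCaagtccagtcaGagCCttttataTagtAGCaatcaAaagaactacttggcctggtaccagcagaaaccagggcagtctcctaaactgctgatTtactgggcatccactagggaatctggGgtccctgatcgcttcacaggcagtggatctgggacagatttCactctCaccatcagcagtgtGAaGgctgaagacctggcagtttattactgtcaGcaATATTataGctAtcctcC

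Each relative matched Igkv8-27 at 88.3% over 316 aligned positions, with 32 mismatches and 5 gap bases. The capitals gather towards both ends of the printed stretch and are few in its middle, most clearly in Igkv8-30. The relatives have closer copies that are not shown. Igkv8-19 matched Igkv8-28 at 97.6% identity and had 1177 counts in WT-3, and Igkv8-21 matched Igkv8-30 at 93.6%. Igkv8-28 held 0.222%, 3.03% and 2.01% of kappa V counts in the knockout libraries, 0.141% in WT-1, 0.813% in WT-2 and 9.72% in WT-3. Igkv8-30 held 0.913%, 2.05% and 0.937% in the knockout libraries, 0.826% in WT-1, 5.39% in WT-2 and 6.28% in WT-3. WT-1, the highest for Igkv8-27, was thus the lowest for both relatives in share, whereas in WT-3 all 3 were high and were the 3 most counted kappa segments. In counts KO-1 was below WT-1 for both relatives, with 9 against 29 for Igkv8-28 and 37 against 170 for Igkv8-30. A high share of 1 segment lowers the shares of the others in its locus.

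Other leaders also owed their place to 1 or 2 mice of either genotype. Igkv6-14 had 1715 counts in KO-2, or 10.2% of its kappa V counts, and 5, 41, 32, 257 and 20 counts in KO-1, KO-3, WT-1, WT-2 and WT-3. KO-2 held 84.0% of its summed CPM. Igkv10-96 was high in 1 library of each genotype, with 12.5% of kappa V counts in KO-3 and 10.8% in WT-2, and 3.03% to 4.42% in the other 4. Ighv3-6 held 9.90% of heavy V counts in WT-2 and 0.769% in WT-1, and Ighv6-6 held 12.7% in WT-3 and 1.11% in WT-1. The extremes of these 2 segments lay within the wild-type group. Ighv5-17 ran from 2.85% in WT-2 to 9.32% in both KO-1 and WT-1, so its share overlapped between genotypes although its CPM did not.

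The lambda locus had 1 leader in all mice. Iglv1 held 81.7%, 83.0% and 97.5% of lambda V counts in KO-1 to KO-3 and 72.8%, 93.9% and 98.0% in WT-1 to WT-3. Iglv2 was common in 3 libraries, with 15.7% in KO-1, slightly less in KO-2 and 26.1% in WT-1, and held 0.674% to 4.66% in the other 3. The last 300 bases of their coding exons, on chromosome 16, minus strand, at chr16:19085017-19085316 and chr16:19260401-19260700, show how alike they are. Capitals mark where Iglv2 differs from Iglv1.
Iglv1: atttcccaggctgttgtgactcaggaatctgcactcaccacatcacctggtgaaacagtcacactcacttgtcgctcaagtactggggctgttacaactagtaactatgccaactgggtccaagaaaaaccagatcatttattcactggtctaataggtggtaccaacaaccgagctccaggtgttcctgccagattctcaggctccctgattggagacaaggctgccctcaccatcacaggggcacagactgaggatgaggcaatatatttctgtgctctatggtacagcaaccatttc
Iglv2: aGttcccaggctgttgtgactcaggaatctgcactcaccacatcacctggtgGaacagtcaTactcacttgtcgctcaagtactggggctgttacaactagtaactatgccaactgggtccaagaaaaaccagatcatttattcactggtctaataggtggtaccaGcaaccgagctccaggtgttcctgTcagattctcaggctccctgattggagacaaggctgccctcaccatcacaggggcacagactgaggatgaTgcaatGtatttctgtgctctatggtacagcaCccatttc

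The exons differed at 9 of 305 aligned positions (97.0% identity), 8 of them within the printed stretch. The constant genes give a separate reading of the 2 segments, since Iglv1 joins to Iglc1 or Iglc3 and Iglv2 mostly to Iglc2. Iglv2 had 4.93, 10.2 and 2.76 CPM in the knockout and 38.3, 6.25 and 0.755 CPM in the wild-type libraries, beside 4.05, 13.3, 4.75, 37.4, 14.3 and 6.49 CPM of Iglc2 in the same order. WT-1 was the highest library for both, and their levels were close in WT-1, KO-1 and KO-2. Iglc2 was well above Iglv2 in WT-3 (6.49 against 0.755 CPM), WT-2 (14.3 against 6.25) and KO-3 (4.75 against 2.76). Iglc2 thus followed Iglv2 only in part. Iglv1 had 25.6, 60.9, 186, 107, 126 and 110 CPM, beside 29.8, 60.3, 181, 104, 147 and 114 CPM of Iglc1, and KO-3 was the highest for both. Iglv3 was rare in every library, at 0.810 to 2.21 CPM.

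Most V segments varied far more between mice of 1 genotype than other genes did. The median coefficient of variation of the 160 tested members was 74.1% among the wild-type and 74.7% among the knockout libraries. Over all genes tested it was 15.8% and 19.2%, and over the 5426 genes within the members' 10th to 90th percentile of mean CPM it was 21.1% and 23.2%. A single library held more than 50% of the summed CPM in 53 of the 160 tested members (33.1%), beside 0.713% of all genes tested. Counting all 168 members there were 61 such segments, 34 of them highest in WT-2, 11 in WT-3, 8 in WT-1 and 8 in the knockout libraries together. The 61 include the members that did not pass the filter, each of which had most of its counts in 1 library. CPM also carries the total V level of a library, which was highest in WT-2. When shares of locus counts replaced CPM, again over all 168 members, 35 segments had over 50% of their summed share in 1 library. Of these, 2, 4 and 6 were in KO-1 to KO-3 and 7, 9 and 7 in WT-1 to WT-3. Without the 50% limit, the highest share was reached in a knockout library by 72 members and in a wild-type library by 96.

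Some segments were present in 1 mouse and nearly absent elsewhere. Ighv6-4 had 172 counts in WT-2 and 0 in the other 5 libraries, where a count of 0 allows up to 3 counts. Ighv1-52 had 219 counts in WT-2 and 0 to 6 elsewhere, and Igkv12-38 had 384 in WT-3, 24 in KO-3 and 0 to 8 elsewhere. Ighv13-2 was present in both genotypes and absent from others of each, with 3, 568 and 14 counts in KO-1 to KO-3 and 2, 470 and 695 in WT-1 to WT-3. In all, 158 of the 168 members had at least 1 count in every library, 24 had at most 3 counts in some library, and 4 of those 24 had at least 300 in another. These segments were chosen after their values were seen, and Ighv6-4, Ighv1-52 and Igkv12-38 met the count limit through the library where they were high. The mice were of a mixed strain, and inherited V haplotypes, which differ between strains, were not determined here, so their part in these counts was not tested.

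Families group V segments of similar sequence. Ighv1, with 43 members, held the largest share of heavy V counts in every library, at 29.6% to 44.8%, and Ighv5, whose 8 members include those nearest the diversity segments, took 9.10% to 21.2%. Ighv9 held 6.42%, 14.8% and 5.37% in the knockout and 2.58%, 3.30% and 3.62% in the wild-type libraries, without overlap. Its 3 members differed, since Ighv9-3 overlapped between genotypes at 3.93%, 5.66% and 1.54% against 1.31%, 2.17% and 1.96%. Among kappa families, Igkv8 held 8.39%, 9.25% and 21.4% in the knockout and 28.7%, 13.1% and 29.6% in the wild-type libraries, and Igkv6 held 28.8% in KO-2 and 11.0% to 18.5% in the other 5. The Igkv8 groups overlapped through KO-3 and WT-2. Of 33 families tested, Ighv9 and the single-member Igkv11 reached the smallest possible p of 0.1 (two-sided exact permutation), and the adjusted p was 1.0 for both (Benjamini-Hochberg).

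Position along the locus was compared in 6 parts. When the 88 Ighv members were cut by position into 3 parts of nearly equal number, the part nearest the joining segments (chr12:113572927-114223328, 30 members) held 46.0%, 43.1% and 39.9% of heavy V counts in KO-1 to KO-3 and 37.9%, 37.7% and 38.7% in WT-1 to WT-3. The groups did not overlap, though KO-3 and WT-3 were close (exact permutation p = 0.1, the smallest possible, and 0.6 after Benjamini-Hochberg adjustment over the 6 parts). In the other 5 parts the exact permutation p was 0.3 to 0.8. The middle part held 31.7% to 47.0% and the far part 14.2% to 30.4%, both with overlap, and WT-1 and WT-3 lay at opposite ends in both. In the kappa locus the nearest part held 32.8% to 52.0%, the middle part 13.9% to 25.5% and the far part 29.1% to 42.8%. Log2 fold changes had about the same median in all parts of the heavy chain locus, between -1.14 and -1.15.

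**Figure D5:**
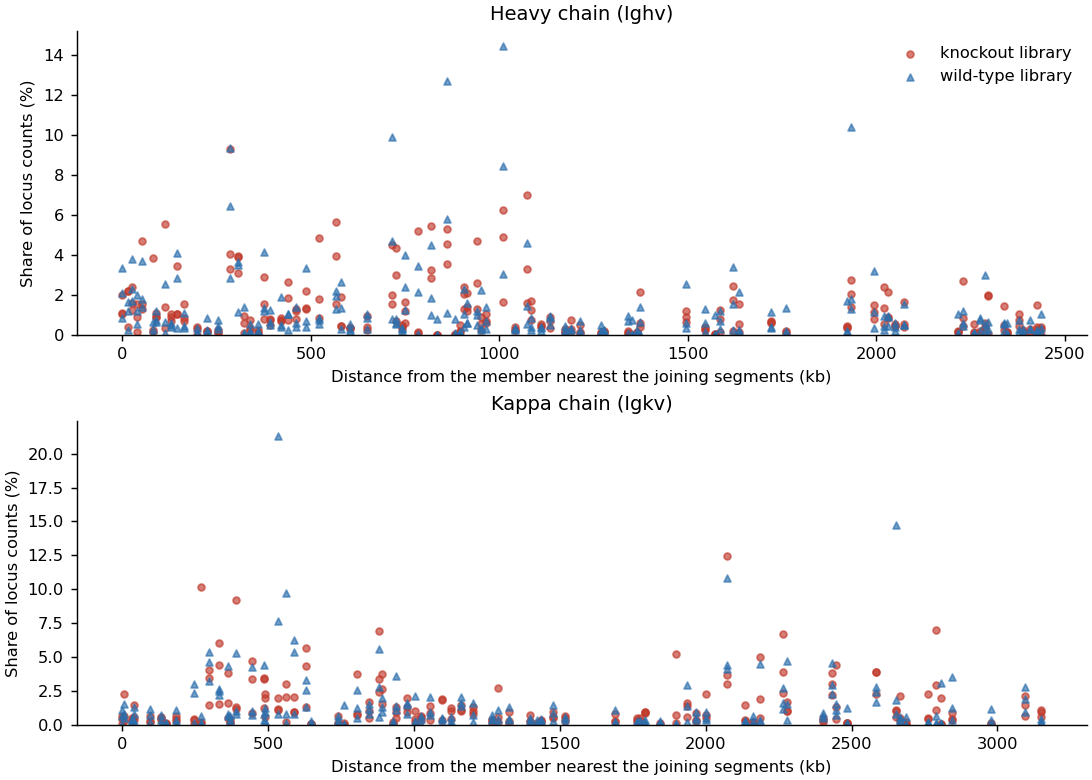
Each point is the share of locus counts (percent, vertical axis) of 1 segment in 1 library, placed by its distance in kb from the member nearest the joining segments, for heavy (top) and kappa (bottom) members. Red circles are knockout and blue triangles wild-type libraries, and the highest points, Igkv8-27 at 21.3% and Igkv9-120 at 14.7%, both belong to WT-1.

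Pairs of libraries of 1 genotype and pairs across genotypes covered overlapping ranges of similarity. The Bray-Curtis dissimilarity of segment shares (0% for identical use, 100% for none in common) over all members was 37.4% to 42.1% between knockout libraries, 41.5% to 54.1% between wild-type libraries and 38.0% to 47.9% across genotypes. The medians were 39.3%, 43.7% and 40.9%. For kappa segments, Pearson's r of shares across the 77 members ran from 0.08 between KO-1 and WT-1 to 0.59 between KO-3 and WT-2, both pairs across genotypes. These r values describe segments within pairs of libraries, share the same libraries and carry no test. WT-1 and WT-2 were the most different pair in both loci, at 54.4% for heavy and 57.6% for kappa segments.

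V segment counts stood in a narrow range of ratios to those of the constant genes. Igkc, the kappa constant gene, had 390, 1340 and 1166 CPM in the knockout and 1472, 2982 and 2006 CPM in the wild-type libraries, and kappa V counts were 36.6 to 43.4 per 100 Igkc counts in all 6. Heavy V counts were 8.05 to 11.3 per 100 heavy chain constant counts, and lambda V counts 81.5 to 102 per 100 lambda constant counts. Igha made up 97.9% to 99.7% of heavy chain constant counts, so the heavy V segments were measured in tissue whose antibody RNA was nearly all IgA. Igha had 1153, 3480 and 3332 CPM against 4059, 6032 and 5515 CPM (log2 fold change -0.97, not called by edgeR). Ighm, the IgM constant gene, was at 5.97 to 10.1 CPM with overlap. Ighg1, the IgG1 constant gene, had 13.6, 4.72 and 17.8 CPM in the knockout and 2.70, 3.74 and 4.81 CPM in the wild-type libraries, where KO-2 overlapped the wild-type range.

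The part of antibody-secreting cell markers in the V segment difference was not tested. Of 14 plasma cell genes, all tested, none was called by edgeR, 11 had a log2 fold change below 0 and 3 above it, with a median of -0.57 beside 0.01 over all genes. The list's summed level was 1451 to 2024 CPM in the knockout and 2380 to 2680 CPM in the wild-type libraries. Most of this sum came from Jchain, Sdc1, Txndc5 and Xbp1, so its separation does not speak for all 14 genes. Txndc5 overlapped, at 526 to 575 CPM in the knockout and 513 to 675 CPM in the wild-type libraries, and so did Sdc1. Jchain had 245, 725 and 669 CPM in the knockout and 889, 1341 and 1137 CPM in the wild-type libraries, without overlap (log2 fold change -1.04). V counts were 110 to 153 per 100 Jchain counts. Eaf2, a transcription elongation factor gene on that list, had 2.01, 1.58 and 1.56 CPM against 4.93, 9.14 and 7.75 CPM, with a log2 fold change of -2.08 and the smallest p of its list (edgeR adjusted p = 0.187). Sdc1, which epithelium also expresses, was 364 to 448 CPM in the knockout and 333 to 471 CPM in the wild-type libraries.

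Genes of earlier B cell stages were not called. Of 14 B cell genes, 10 were tested, none was called by edgeR, and 6 were below and 4 above 0, with summed levels of 80.4 to 104 CPM in the knockout and 93.4 to 133 CPM in the wild-type libraries. Blnk made up most of that sum, at 54.4 to 74.1 CPM in the knockout and 72.2 to 100 CPM in the wild-type libraries. Spib had the list's smallest p and was higher in the knockout without overlap (log2 fold change 1.32, edgeR adjusted p = 0.762). It had 14.5, 9.37 and 6.76 CPM against 4.31, 3.33 and 4.56 CPM. Cd79a and Cd79b went the other way, at -0.79 and -0.88. Pax5, which defines B cells before the plasma cell stage, had 0 to 5 counts per library. The germinal centre list had 1 tested gene below and 5 above 0, the follicle list 5 below and 1 above with Glycam1 at 0 in all libraries, and the V(D)J recombination list 3 below and 3 above with Rag1 at 0 in all. None of these genes was called. All 7 tested joining segments had a log2 fold change below 0, with a median of -1.19, beside 48.9% of all genes tested below 0. Their counts were low, from 1 (Ighj1) to 11 (Ighj4) in KO-1. Ighj1 and Igkj3 did not overlap between genotypes, whereas Ighj2, Ighj3, Ighj4, Igkj4 and Igkj5 did.

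Other cell types also differed between libraries, and their part in the V segment levels was not tested. The 8 T cell genes were all below 0 (median -0.50, none called by edgeR), with summed levels of 14.5 to 36.7 CPM in the knockout and 28.3 to 36.5 CPM in the wild-type libraries. The 6 fibroblast genes were all above 0 (median 0.76, none called), at 637 to 2444 against 379 to 1218 CPM. The 8 epithelial genes were 7 below and 1 above 0 (median -0.12, none called). Of 11 tested genes for plasma cell homing and IgA transport, 8 were below and 3 above 0 and none was called. Pigr, the epithelial receptor that carries dimeric IgA into the lumen, had 1533, 4606 and 1944 CPM in the knockout and 2069, 3427 and 3268 CPM in the wild-type libraries. KO-1 was the lowest library for Pigr and T cell genes as well as for V segments, whereas KO-2 had the highest Pigr level of all.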

How the data were processed

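The authors deposited 1 table of whole-number counts per Ensembl gene for each library. The submitters' processing notes name TopHat2 2.1.0, HTSeq 0.6.1 and mm10. The sources used here do not give the strand setting, annotation release or counting of reads with several alignments, nor how reads that cross a V-J join or carry somatic or strain differences were aligned, so counts of single segments depend on steps not known here. Groups and replicate numbers came from the sample titles. Symbols came from GENCODE M21 (45143 of 46078 identifiers).

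Counts were filtered with filterByExpr, scaled by TMM and tested with edgeR 4.0.16 (quasi-likelihood F-test, robust, Benjamini-Hochberg threshold 0.05) in R 4.3.3. The SE is the log2 fold change over the square root of F. limma 3.58.1 (voom) and DESeq2 1.42.0 were alternatives. Summed levels, shares and dominance were compared by exact permutation with scipy 1.17.1, and near copies were found with blastn 2.17.0. The fit was tested on simulated data. Members and gene lists were chosen with earlier results of these data known. Named segments were the 3 most used of each locus in any library, the 5 smallest p in each direction, any called, and those at the count limit. Of other lists, Jchain, Igha, Ighm and Igkc were always named, the genes with the highest level or the smallest p where a result turned on them, and a few defining markers after their values were seen. Recombination signals and promoters were not analysed here, and some marker genes are not reported here.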

Additional observations from a re-analysis of the deposited data

How the results depend on the processing

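Of 201 recomputed values, 188 were scored as the same, 4 as reversed and 9 as moved. A measure was the same if its difference kept its sign, and a count of calls if it stayed equal or close. Neither p nor overlap of the groups entered this score, so alternatives that lost a separation can be among the 188. The heavy chain share of V counts, 0.02 percentage points apart in the full data, was -0.38 without pseudogenes and between -1.20 and 1.86 with 1 library left out. edgeR called 16 genes and 0 V segments. DESeq2 called 110 genes and 12 V segments, and leaving out 1 library gave 9 to 41 genes and 0 to 3 V segments, the cause of which was not tested. The segments called were Igkv1-135, Igkv6-32 and Igkv4-90 without KO-2, Igkv3-7 without WT-1 and Ighv1-76 without WT-3. Merging segments of at least 95% identity brought the heavy leader difference from -5.28 to -3.50 percentage points with overlap of the groups, and counts per exon length, an alternative added after seeing the data, gave -5.93. The 5 segments with the smallest p in each direction were recomputed under 136 alternatives, of which 127 left the call as it was, 8 brought it past the threshold and 1 reversed it, that of Ighv1-85, at -0.32 without KO-3 (range -0.32 to 1.82).

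Replicate numbers are not stated to pair the mice. Deviations of same-numbered libraries correlated at 0.22, 0.27 and 0.08, and KO-3 correlated best with WT-1 (0.18). A fit with the replicate number as a block called 14 genes and 0 V segments. KO-1, with 7637 V counts, gave the least precise shares.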
